A study of Mus musculus with 32 samples.

Results

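The 39 Hox genes of the mouse lie in 4 clusters, and their open chromatin was followed here through reprogramming. The genes were chosen by symbol from the 21887 protein-coding genes of the GRCm38.p6 RefSeq table. They are 11 Hoxa genes (chromosome 6), 10 Hoxb genes (chromosome 11, 96194316 to 96368254), 9 Hoxc genes (chromosome 15, 102921131 to 103036856) and 9 Hoxd genes (chromosome 2, 74668225 to 74765142). All peaks whose centre lay between the first and last gene of a cluster, or within 50 kb of it, were taken as Hox peaks. Over all 15 peak lists they formed 198 distinct sites of 276187, with 49 at Hoxa, 65 at Hoxb, 47 at Hoxc and 37 at Hoxd.

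Hox genes encode homeodomain transcription factors that give cells their position along the head to tail axis and the limb. Within a cluster the genes are ordered by paralog group, from group 1, active in anterior tissue, to group 13, active in the most posterior tissue. Polycomb proteins keep Hox genes silent and Trithorax-type proteins keep them active. CTCF, a zinc finger protein, binds inside the clusters and marks borders between their active and silent parts. Fibroblasts keep the Hox pattern of the body region they came from, and pluripotent cells hold the clusters silent.

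ATAC-seq, in which a transposase inserts adapters into open chromatin, was run on 32 samples of mouse embryonic fibroblasts that carried the reprogramming factors OSKM (Oct4, Sox2, Klf4 and c-Myc). The fibroblasts are named OG2-MEFs in the protocols and carry a GFP reporter that is switched on with Oct4 (Pou5f1). The largest set of lists came from the Tet-On lentiviral system, in which doxycycline switches OSKM on, with a control shRNA (shLuci) or a CTCF shRNA (shCTCF). It held unsorted cells of day 0 (2 samples a group), Thy1+ cells of days 3, 6 and 9 (3 samples), SSEA1-Thy1- and SSEA1+ cells of days 6 and 9 (2 samples each) and GFP+ cells of day 12 (2 samples). The day 10 set held cells with OSKM and a control vector (oeControl), CTCF overexpression (oeCTCF), or CTCF overexpression with Smarca5 shRNA, which targets the ATPase of ISWI chromatin remodellers (2 samples each). The day 12 set held unsorted cells with control or Smarca5 shRNA (2 samples each). Day 0 is named as a day of reprogramming too, so all groups, controls included, come from cells meant for OSKM. The labels do not say how many hairpins were used, and samples of different days were joined in the Thy1+, SSEA1-Thy1- and SSEA1+ lists.

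Each group has 1 deposited peak list. Replicates could therefore not be compared, and p-values are not given. Whole lists held 43618 to 213386 peaks, and the read depth behind them is unknown. Ranges in brackets are 95% intervals by the exact Clopper-Pearson method, which reflect counting error alone. Lists share peak positions inside each of 3 sets (day 0 with the sorted cells, day 10, day 12), and comparisons were kept inside a set. Of 22 fibroblast marker genes, 22 had a gene-start peak at day 0 and 16 in GFP+ control cells, while 12 and 19 of 20 markers of pluripotent cells had one. Of all genes, 67.4% had one in the day 0 control list and 67.9% in the GFP+ control list. Distinct peaks within 10 kb of the fibroblast markers numbered 220 in the day 0 control, then 250 (Thy1+), 170 (SSEA1-Thy1-), 126 (SSEA1+) and 81 (GFP+). From Thy1+ cells on, peaks near fibroblast markers thus fell in number from each sorted population to the next, as did whole lists. As shares of the lists they were 0.143% at day 0, then 0.129%, 0.112%, 0.0928% and 0.0887%. Gene-start peaks were also found at markers of other lineages. In the day 0 control list they were at 10 of 12 epithelial, 6 of 8 neural and 6 of 7 endoderm or trophoblast markers. The same list had them at 3 of 6 haematopoietic and 3 of 5 endothelial markers, so they do not name a cell type by themselves. Of 4 keratinocyte markers, 0 to 2 had a gene-start peak in any list, with 61.1% to 70.5% of all genes having one.

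The promoter sequences of 4 Hox genes are given as examples. They are the bases just before the start of transcription (GRCm38.p6, RefSeq), written 5′ to 3′ along the gene, with capitals for the bases inside a peak of at least 1 of the 15 lists. Hoxa2 and Hoxd4 differed between lists, and Hoxa5 and Hoxd1 had a gene-start peak in every list. Of the 39 genes, 22 matched the promoter table, and Hoxb6, Hoxc12 and Hoxc5 were not among them.
Hoxa2, chr6:52164832-52165081, minus strand, peak in 12 lists: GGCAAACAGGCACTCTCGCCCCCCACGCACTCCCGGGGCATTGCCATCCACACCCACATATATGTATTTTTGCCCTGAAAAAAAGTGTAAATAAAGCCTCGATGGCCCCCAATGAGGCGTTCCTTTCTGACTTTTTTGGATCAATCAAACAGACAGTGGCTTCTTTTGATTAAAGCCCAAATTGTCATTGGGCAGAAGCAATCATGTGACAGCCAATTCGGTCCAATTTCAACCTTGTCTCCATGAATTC
Hoxa5, chr6:52204588-52204837, minus strand, peak in 15 lists: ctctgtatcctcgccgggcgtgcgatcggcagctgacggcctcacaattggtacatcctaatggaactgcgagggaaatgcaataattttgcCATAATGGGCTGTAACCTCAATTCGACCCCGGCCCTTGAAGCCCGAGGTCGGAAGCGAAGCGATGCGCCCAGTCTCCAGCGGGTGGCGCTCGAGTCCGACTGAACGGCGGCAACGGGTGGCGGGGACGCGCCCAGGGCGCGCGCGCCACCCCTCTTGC
Hoxd4, chr2:74721728-74721977, plus strand, peak in 4 lists: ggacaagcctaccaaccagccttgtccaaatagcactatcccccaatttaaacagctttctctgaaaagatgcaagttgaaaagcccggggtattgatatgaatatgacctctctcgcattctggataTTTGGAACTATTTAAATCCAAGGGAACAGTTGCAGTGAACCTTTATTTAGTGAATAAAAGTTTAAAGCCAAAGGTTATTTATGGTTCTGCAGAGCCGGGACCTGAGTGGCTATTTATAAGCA
Hoxd1, chr2:74762730-74762979, plus strand, peak in 15 lists: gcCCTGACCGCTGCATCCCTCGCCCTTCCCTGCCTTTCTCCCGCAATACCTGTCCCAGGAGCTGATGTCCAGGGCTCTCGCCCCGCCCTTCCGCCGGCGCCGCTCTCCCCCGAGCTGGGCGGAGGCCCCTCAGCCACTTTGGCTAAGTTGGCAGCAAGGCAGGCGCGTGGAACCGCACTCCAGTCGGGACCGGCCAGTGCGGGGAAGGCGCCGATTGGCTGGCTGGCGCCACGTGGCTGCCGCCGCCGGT
In these 250 bases, all 250 of Hoxa2 fell inside a peak, against 158 of Hoxa5, 122 of Hoxd4 and 248 of Hoxd1. The 2 printed promoters that differed between lists held fewer CpG dinucleotides than the 2 printed constant ones. Hoxa2 had 6 and Hoxd4 3, against 28 in Hoxa5 and 24 in Hoxd1. Hoxb4, not printed, also had a gene-start peak in all 15 lists. Its 250 bases held 14 CpG, and 0 of them fell inside a peak. Among the 24 Hox entries of the table (300 bases each), CpG numbers ran from 4 to 45 with a median of 14.5, against 13 over 21255 promoters. Low CpG number did not go with absence of a peak throughout: Hoxd8, with 6, had a gene-start peak in all 15 lists, and Hoxa6, with 26, in none.

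Motifs were searched on both strands of these 300 bases. CAGNGGGC, part of the CTCF core motif, was found in 2 of 24 Hox promoters (8.33%), those of Hoxc4 and Hoxd13, and in 10.6% of all. TGANTCA, the AP-1 site, occurred in 1, that of Hoxd11, or 4.17% against 6.99% of all. ATGCNAAT, an octamer of the kind POU factors such as Oct4 bind, occurred in 1, that of Hoxb1, or 4.17% against 2.92%. The motifs share no overlap by their letters, and each share is a description of these windows.

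The first question was how open the clusters were in each population. In the day 0 control list the Hox windows held 139 peaks, 36 at Hoxa, 43 at Hoxb, 32 at Hoxc and 28 at Hoxd. Control Thy1+ cells held 149 peaks, SSEA1-Thy1- cells 145, SSEA1+ cells 138 and GFP+ cells 130. With CTCF shRNA the same populations held 146, 159, 155, 153 and 133 peaks. The Hox number thus stayed between 130 and 159 while whole lists ran from 91337 to 213386 peaks. As a share of the list, Hox peaks made up 0.0903% at day 0 (0.0759% to 0.107%) and 0.142% in GFP+ control cells (0.119% to 0.169%). The clusters were denser in peaks than their flanks. Between the first and last gene there were 2.15 peaks per 10 kb at day 0, against 0.825 in the flanks. Per Hox gene the median number of peaks closer than 10 kb was 6 in the day 0 control and 5 in the GFP+ control, against medians of 4 and 3 over all genes. Neighbouring Hox genes share peaks in this count. Means from day 0 to GFP+ control cells were 6.15, 6.82, 6.72, 6.62 and 5.79. Over all genes they were 5.53, 6.97, 5.78, 5.31 and 3.96, so the Hox mean was the lower one in Thy1+ cells.

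**Figure D1:**
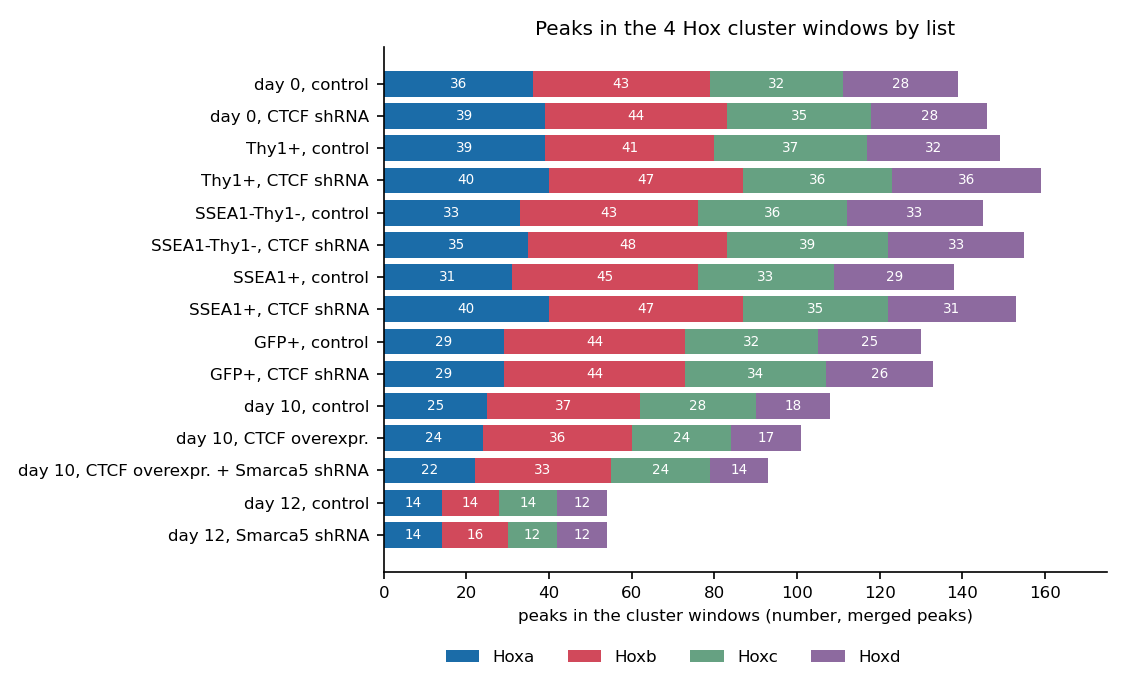
Peaks in the 4 Hox windows (x axis, number of merged peaks) in each of the 15 lists (y axis), with 1 colour per cluster and the number printed in each bar. The 10 day 0 and sorted lists hold 130 to 159 Hox peaks, the day 10 lists 93 to 108 and the day 12 lists 54 each; numbers are not comparable between these 3 sets.

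Of the 198 sites, 61 lay within 1 kb of a gene start, 48 elsewhere in a Hox gene, 36 between Hox genes and 53 in the flanks. In all 15 lists 37 sites were open, and 6 were open in 1 list. The gene starts weighed more here than in the genome: 37.4% of Hox peaks lay at one in the day 0 control list and 11.1% of all peaks. Counting the 10 day 0 and sorted lists, 80 of 189 Hox sites (42.3%) were open in every list, against 13.5% of 266864 sites genome-wide.

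The second question was what happened in the clusters on the way to GFP+ cells under control shRNA. Of the 139 Hox peaks at day 0, 37 were absent from the GFP+ list, or 26.6% (19.5% to 34.8%), against 67.6% of all day 0 peaks. Of the 130 Hox peaks in GFP+ cells, 28 were new, or 21.5% against 45.5% of all. The other 102 day 0 peaks were kept. Set against whole lists, the log2 ratio of Hox peaks from day 0 to GFP+ cells was 0.66 (0.30 to 1.01), meaning that Hox peak numbers shrank less than the lists did. Set against the gene-start peaks of whole lists, with Hox peaks of all places still counted, the same ratio was -0.06.

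Hox peaks are richer in gene-start peaks, which are kept more often everywhere, so both kinds were counted apart. At gene starts 9 of 52 Hox peaks were lost from day 0 to GFP+ cells (17.3%, 8.23% to 30.3%), against 13.1% of all gene-start peaks. Away from gene starts 28 of 87 were lost (32.2%, 22.6% to 43.1%), against 74.4% of all such peaks. The difference between Hox windows and the genome was therefore seen away from gene starts, with an interval that ends below the genome's share. By region, 16 of 33 flank peaks (48.5%, 30.8% to 66.5%) and 21 of 106 peaks between the first and last Hox genes (19.8%, 12.7% to 28.7%) were lost. New peaks showed the same split by place, with 4 of 47 at gene starts (8.51% against 11%) and 24 of 83 away from them (28.9% against 53.2%).

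**Figure D2:**
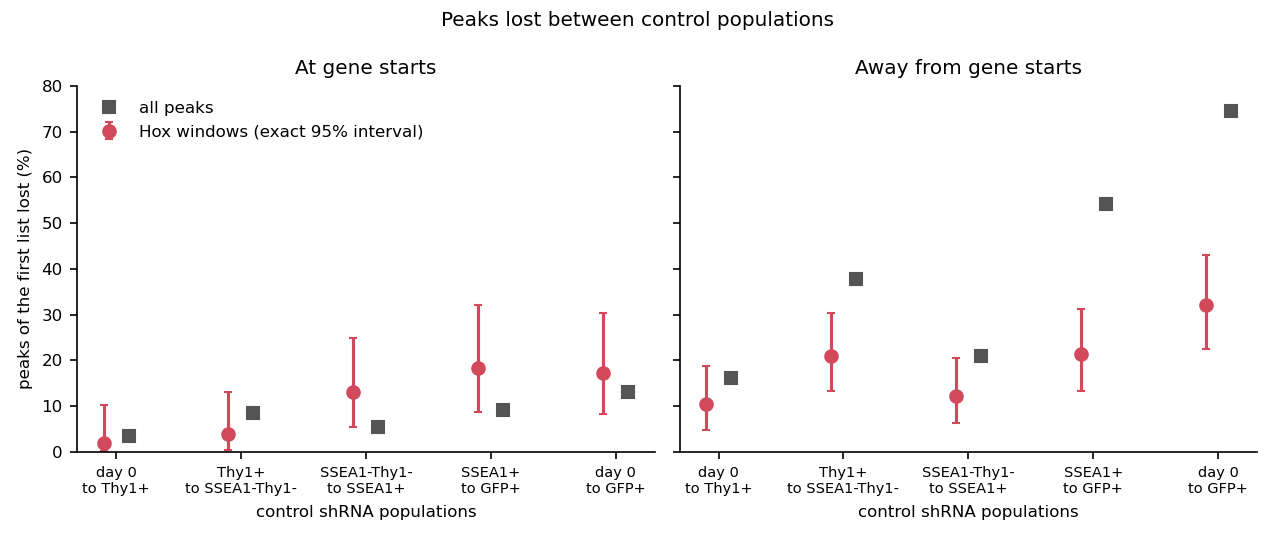
Share of the first list's peaks that were lost (y axis, percent) at each control step and from day 0 to GFP+ cells (x axis), at gene starts (left) and away from them (right). Red points are Hox windows with exact 95% intervals and grey squares are all peaks; from day 0 to GFP+ cells the Hox value away from gene starts is 32.2% and that of all peaks 74.4%.

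At each of the 4 control steps the Hox share lost, and the share gained, was below the genome's when peaks of all places were counted together. From day 0 to Thy1+ cells 10 Hox peaks were lost (7.19% against 14.7% of all) and 20 gained (13.4% against 32.5%). From Thy1+ to SSEA1-Thy1- cells 22 were lost (14.8% against 35.1%) and 18 gained (12.4% against 16.5%). The next step, to SSEA1+ cells, had 18 lost (12.4% against 19.1%) and 11 gained (7.97% against 9.91%). The last step, from SSEA1+ to GFP+ cells, had 28 lost (20.3% against 48.5%) and 20 gained (15.4% against 23.5%). The relative log2 ratios of the 4 steps were -0.24, 0.32, 0.08 and 0.49 against whole lists. Against gene-start peaks of whole lists, with Hox peaks of all places still counted, they were 0.018, 0.020, -0.046 and -0.053. Of the 4, 3 thus had the other sign and the remaining one was near 0. The Thy1+ list joins 3 samples and is the longest of the control lists, so its neighbours' steps carry that difference. At gene starts the Hox share lost was above the genome's at the later steps, with intervals that hold the genome's value. From SSEA1-Thy1- to SSEA1+ cells 7 of 54 Hox peaks there were lost (13%, 5.37% to 24.9%, against 5.43% of all), and from SSEA1+ to GFP+ cells 9 of 49 (18.4%, 8.76% to 32.0%, against 9.01%).

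Over the 5 control populations the windows held 186 sites. Of these, 85 (45.7%) were open in all 5, against 16.0% of sites genome-wide. A further 37 were open at day 0 and not in GFP+ cells (19.9% against 40.2%), and 28 the reverse (15.1% against 16.0%). Open only in the sorted intermediates were 23 (12.4% against 24.6%), and 13 were open at day 0 and in GFP+ cells with a gap between (6.99% against 3.16%). Of the 37 closing peaks, Thy1+ cells still held 31 (83.8% against 79.5% of all closing peaks), SSEA1-Thy1- cells 17 (45.9% against 28.9%) and SSEA1+ cells 11 (29.7% against 15.1%). Of the 28 opening peaks, Thy1+ cells held 9 (32.1% against 49.6%), SSEA1-Thy1- cells 9 (32.1% against 58.7%) and SSEA1+ cells 16 (57.1% against 64.1%).

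Counts differed by cluster, and the difference was not tested. Hoxa lost 14 of its 36 day 0 peaks by the GFP+ stage and gained 7 of 29. Hoxb lost 11 of 43 and gained 12 of 44. Hoxc lost 6 of 32 and gained 6 of 32, and Hoxd lost 6 of 28 and gained 3 of 25. Hoxa was thus the cluster with the largest net fall in number, from 36 peaks to 29, and Hoxb had 43 and 44.

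**Figure D3:**
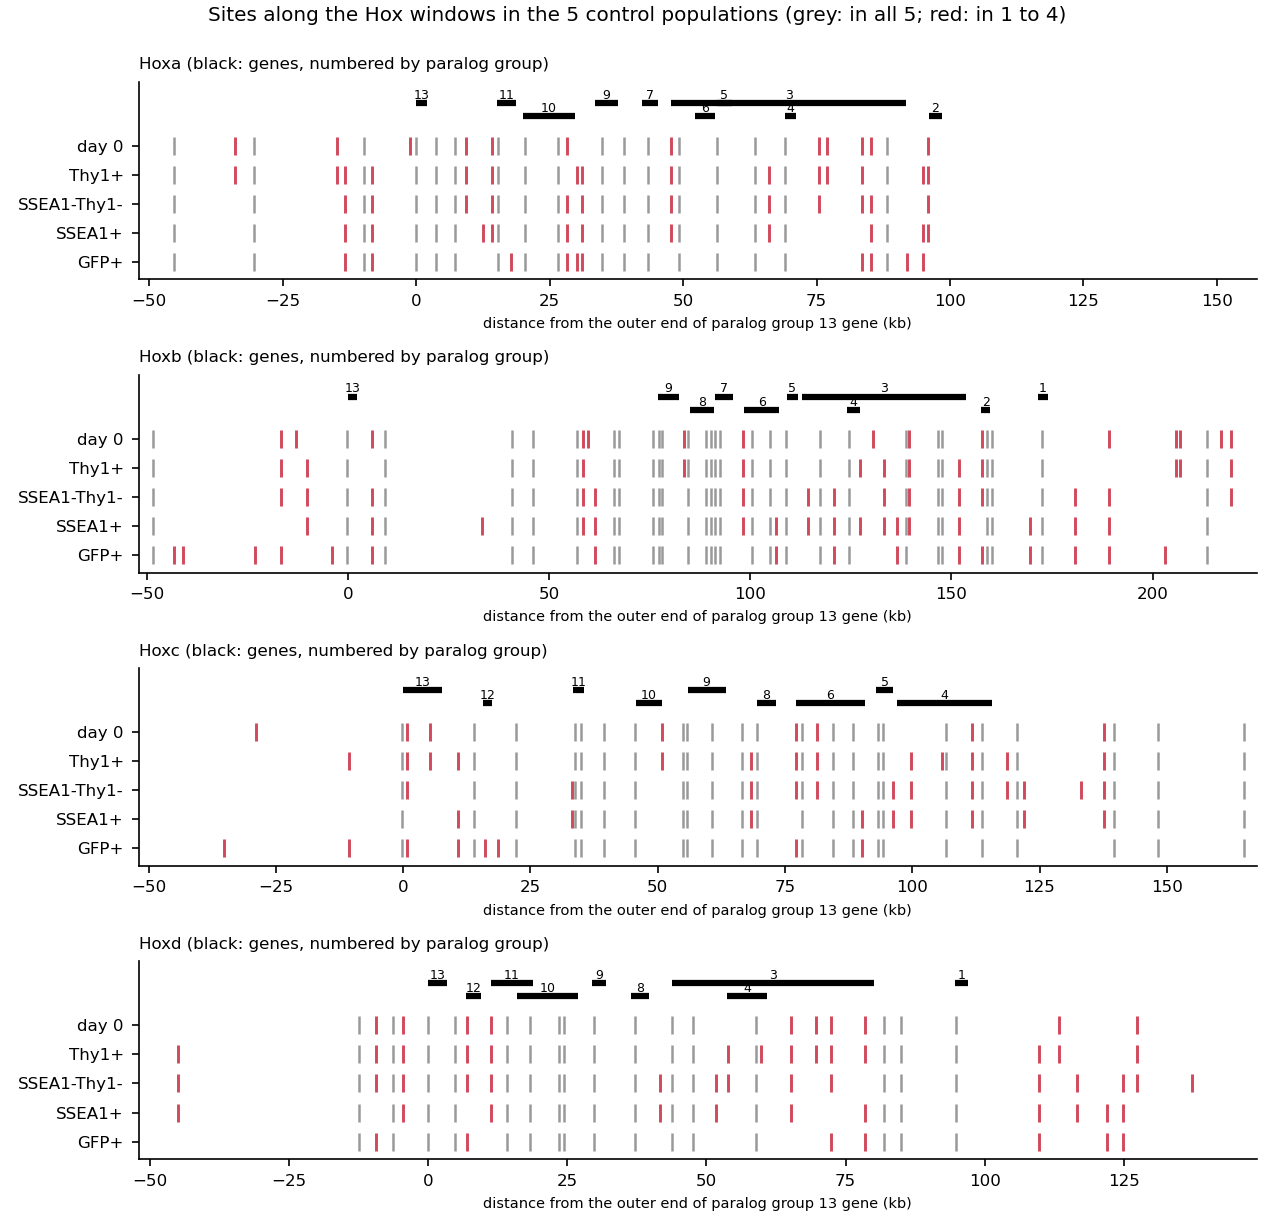
Open sites (ticks) along each Hox window in the 5 control populations (y axis), by distance from the outer end of the paralog group 13 gene (x axis, kb), with genes as black bars. Grey ticks are sites open in all 5 populations and red ticks the others; the right-hand part of Hoxa, around Hoxa2 and Hoxa3, holds red ticks at day 0 that are missing in GFP+ cells.

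In the anterior part of Hoxa several sites were open at day 0 and not in GFP+ control cells. The site at chr6:52164694-52165336 covers the printed promoter of Hoxa2, which patterns the pharyngeal arches. It was open in 9 of the 10 day 0 and sorted lists, the exception being GFP+ control cells. Hoxa3, which acts in thymus and neck development, spans 44009 bp in the table, and its start lies between Hoxa6 and Hoxa7. The site there, chr6:52212771-52213538, was open in every list but the GFP+ control. Inside Hoxa3, sites at chr6:52183623-52184022 and chr6:52185184-52185583 were open at day 0 and in Thy1+ cells of both arms and in neither GFP+ list.

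Other sites of this stretch stayed open. The site at chr6:52172488-52172899 in Hoxa3 was open in all 15 lists. Next to the lost Hoxa2 peak, chr6:52165785-52166238 was absent at day 0 and open in GFP+ control cells. Counted by nearest Hox gene, peaks of the anterior Hoxa genes (groups 1 to 4) numbered 14, 15, 13, 11 and 10 in the 5 control populations from day 0 to GFP+. By this rule a peak between Hoxa6 and Hoxa7 can count as anterior if Hoxa3 is nearest, as the site at the Hoxa3 start did. Posterior Hoxa peaks (groups 9 to 13) numbered 11, 12, 12, 12 and 12. In Hoxb the anterior peaks were 11, 13, 14, 16 and 13. Over all 4 clusters anterior peaks numbered 40 at day 0 and 35 in GFP+ control cells, central ones (groups 5 to 8) 21 and 21, and posterior ones 45 and 44. From day 0 to GFP+ cells anterior peaks went from 4 to 3 in Hoxc and from 11 to 9 in Hoxd. Their number was thus lower in GFP+ cells in Hoxa, Hoxc and Hoxd and higher in Hoxb.

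The third question was which Hox gene starts were open. A gene start was called open when a peak lay within 1 kb of the start in the promoter table (22 Hox genes) or, for the 17 others, within 1 kb of either end of the gene, so that a peak at the 3′ end can count. By this rule 33 of 39 Hox genes (84.6%) had a gene-start peak in the day 0 control list, against 67.4% of all genes. Among sorted controls, Thy1+ and SSEA1-Thy1- cells had 34 each, SSEA1+ cells 32 and GFP+ cells 31 (69.5%, 68.3%, 67.6% and 67.9% of all genes). With CTCF shRNA the Hox numbers were 33, 34, 33, 33 and 33 from day 0 to GFP+ cells (67.2%, 70.5%, 68.9%, 69.3% and 68.4% of all genes). At day 10 the numbers were 31 with oeControl, 32 with CTCF overexpression and 31 with Smarca5 shRNA added (65.8%, 66.2% and 64.0% of all genes). At day 12 they were 26 with control (66.7% against 61.3% of all genes) and 23 with Smarca5 shRNA (59.0% against 61.1%).

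A core of 19 genes had a gene-start peak in all 15 lists: Hoxa4, Hoxa5, Hoxa10, Hoxa13, Hoxb2, Hoxb4, Hoxb7, Hoxb9, Hoxc5, Hoxc6, Hoxc8, Hoxc10, Hoxc13, Hoxd1, Hoxd3, Hoxd8, Hoxd9, Hoxd10 and Hoxd13. They come from all 4 clusters and from paralog group 1 to 13. Hoxa6, Hoxb3 and Hoxb8 had one in none. The nearest peaks to the starts of Hoxa6 and Hoxb8 lay 2871 and 1101 bp away in each of the 10 day 0 and sorted lists, so the neighbourhood was open outside the distance limit. Hoxa9, known for its role in blood progenitors, had one only in the 2 day 12 lists. Its nearest peak was 1207 bp from the start in the day 0 and sorted lists and 982 bp at day 12, a step across the limit between sets with different peak positions. In the 10 day 0 and sorted lists, 29 of 39 Hox genes (74.4%) had a gene-start peak throughout, against 61.5% of all genes.

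**Figure D4:**
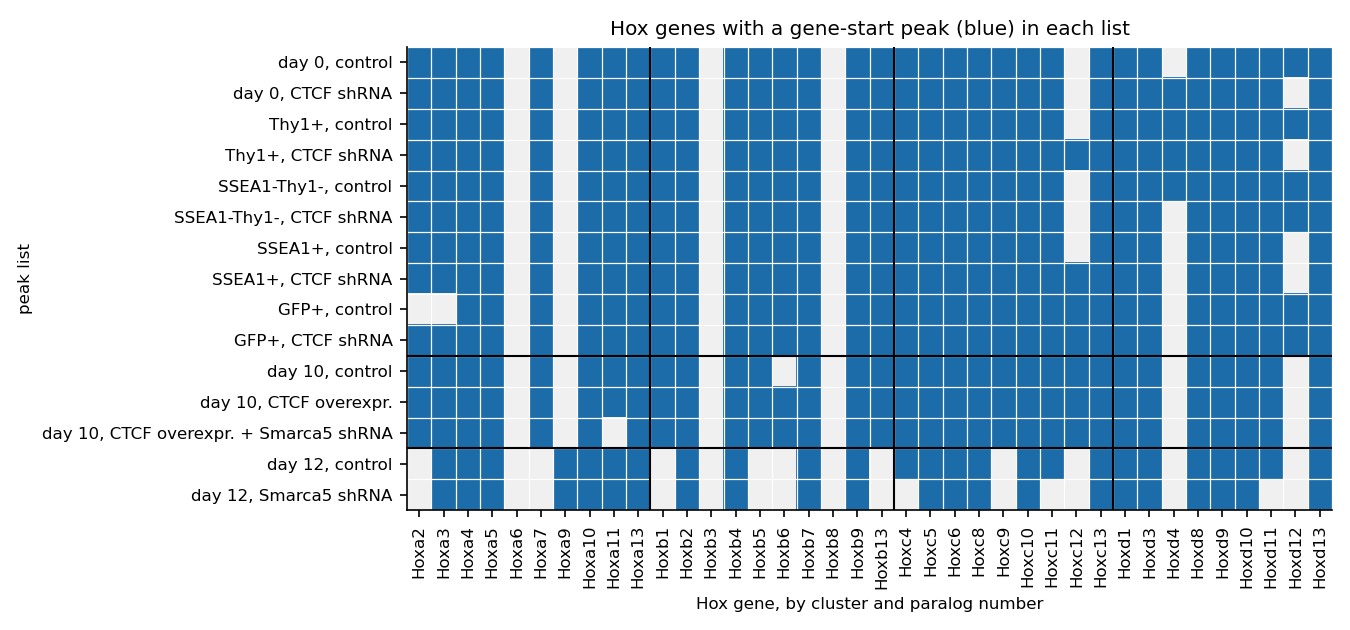
Presence (blue) or absence (grey) of a gene-start peak for the Hox genes (x axis, by cluster and paralog number) in each of the 15 lists (y axis). Black lines separate the clusters and the 3 sets of lists; Hoxa2 and Hoxa3 are grey in GFP+ control cells, and Hoxd4 is blue in 4 lists.

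From day 0 to GFP+ control cells Hoxa2 and Hoxa3 lost their gene-start peak (with 3.49% of all genes losing one), and Hoxc12 gained one (1 of 39, with 3.98% of all genes gaining one). Both Hoxa losses depend on the distance limit. In GFP+ control cells the nearest peak lay 1008 bp from the Hoxa2 start and 1125 bp from the Hoxa3 start, against 106 and 72 bp at day 0, and neither was lost with a limit of 2500 bp. The losses fell in the last step, from SSEA1+ to GFP+ cells, where Hoxa2 and Hoxa3 lost a gene-start peak (2.44% of all genes) and Hoxc12 and Hoxd12 gained one (2.78% of all). Earlier steps changed few. Hoxd4 gained one from day 0 to Thy1+ cells (2.84% of all genes), no Hox gene gained (1.29% of all) or lost one (2.5% of all) from Thy1+ to SSEA1-Thy1- cells, and Hoxd4 and Hoxd12 lost one from SSEA1-Thy1- to SSEA1+ cells (1.83% of all).

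Hoxd4 and Hoxd12 each changed their gene-start peak in 4 of the pairs and steps compared, more than any other Hox gene. Hoxd4 is expressed in hindbrain and neural tube. Its peak at chr2:74721856-74722255 covers the end of the printed promoter and the start itself. It was open at day 0 with CTCF shRNA, in Thy1+ cells of both arms and in the SSEA1-Thy1- control, and closed in the other 11 lists. In the day 0 and GFP+ control lists the nearest peak to the Hoxd4 start was 5003 bp away. Hoxd12, a limb gene of the posterior end, had its peak at chr2:74675037-74675436, open in 6 lists: day 0, Thy1+, SSEA1-Thy1- and GFP+ controls, and SSEA1-Thy1- and GFP+ cells with CTCF shRNA. Where it was closed in the day 0 and sorted lists, the nearest peak was 1669 bp away. For Hoxc12, a posterior gene without an entry in the promoter table, a site at chr15:102936951-102937581 inside the gene was open in Thy1+ and SSEA1+ cells with CTCF shRNA, in both GFP+ lists and in all 3 day 10 lists.

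Peaks within 10 kb of single genes, which include those at their starts, were counted as well. From day 0 to GFP+ the control lists held 2, 3, 2, 3 and 5 peaks within 10 kb of Hoxc12, the largest gain of a Hox gene from day 0 to GFP+ cells. Hoxa3 had 16, 17, 15, 13 and 12, the largest loss. Within the steps, the largest gains were at Hoxc4 (8 to 11, day 0 to Thy1+), Hoxb5 (4 to 6, Thy1+ to SSEA1-Thy1-), Hoxb3 (15 to 17, SSEA1-Thy1- to SSEA1+, tied with Hoxb4) and Hoxc12 (3 to 5, SSEA1+ to GFP+, tied with Hoxc13). Losses included Hoxa11 (7 to 6, day 0 to Thy1+), Hoxa3 (15 to 13, SSEA1-Thy1- to SSEA1+, tied with Hoxc8 and Hoxd13) and Hoxc4 (12 to 8, SSEA1+ to GFP+). Hoxa3 spans 44009 bp in the table and takes in Hoxa4, Hoxa5 and Hoxa6. Hoxb3 spans 40830 bp and takes in Hoxb4. The numbers of Hoxa3 and Hoxb3 are thus high by their length, which leaves more room for change.

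The fourth question was what CTCF shRNA did inside the clusters, whose borders CTCF is known to bind. In all 5 populations the Hox windows held more peaks with CTCF shRNA than with control shRNA, with 39 peaks lost and 84 gained over the 5 pairs. Whole lists were longer too, and the relative log2 ratio averaged -0.09 ± 0.14 (SD, n = 5 pairs), above 0 in 1 of 5 pairs. Hox peaks of all places were also set against gene-start peaks alone in place of whole lists. The ratio was then 0.066, 0.058, 0.065, 0.068 and 0.017 from day 0 to GFP+ cells, above 0 in 5 of 5. The sign therefore depends on what the Hox peaks are set against. Of the 189 sites in these lists, 109 (57.7%, 50.3% to 64.8%) were neither lost nor gained in any pair, against 44.5% of all sites.

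At day 0 the pair had 6 Hox peaks lost (4.32% against 4.45% of all) and 13 gained (8.90% against 4.85%), with a relative log2 of 0.06. In Thy1+ cells 9 were lost (6.04% against 8.2%) and 19 gained (11.9% against 16.3%). In SSEA1-Thy1- cells 4 were lost (2.76% against 8.74%) and 14 gained (9.03% against 15.8%). Up to this stage each pair gained more Hox peaks than it lost, and the later pairs did the same. In SSEA1+ cells 11 were lost (7.97% against 7.99%) and 26 gained (17.0% against 32.0%), with a relative log2 of -0.29 (-0.63 to 0.06). In GFP+ cells 9 were lost (6.92% against 14.3%) and 12 gained (9.02% against 24.3%). The Hox share of new peaks was below the genome's in 4 of 5 pairs and above it at day 0, where its interval of 4.83% to 14.7% reaches down to the genome's value. By place, gene starts differed from this pattern. At gene starts the Hox share gained was above the genome's in 4 of 5 pairs, such as 8.16% (2.27% to 19.6%) against 4.54% in GFP+ cells, with intervals that hold the genome's value. Away from gene starts 11 of 93 Hox peaks were new at day 0 (11.8%, 6.05% to 20.2%), and the interval lies above the genome's 5.11%.

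**Figure D5:**
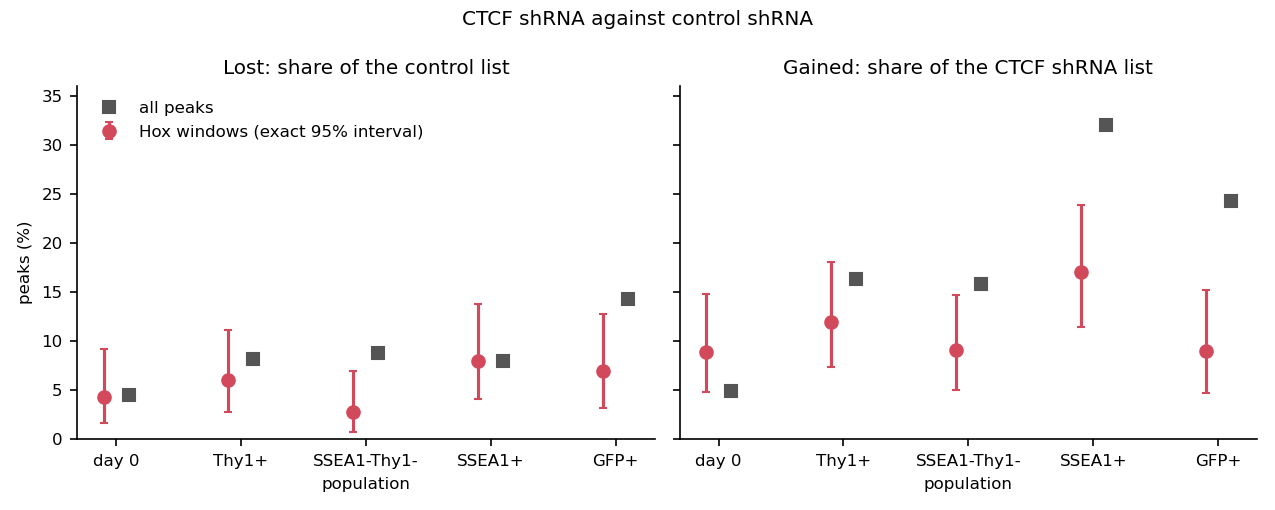
Share of control peaks lost (left, percent) and of CTCF shRNA peaks gained (right, percent) in each population (x axis). Red points are Hox windows with exact 95% intervals and grey squares are all peaks; in GFP+ cells 9.02% of Hox peaks and 24.3% of all peaks were new.

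Few sites answered in more than 1 population. Of the Hox sites, 30 were lost in 1 pair, 2 in 2 pairs and 1 in 3 pairs, and 46, 16 and 2 were gained. The site lost in 3, at day 0 and in Thy1+ and SSEA1+ cells, was chr2:74746538-74746937 inside Hoxd3. A site in the flank beyond Hoxd1, chr2:74789987-74790386, was gained at day 0 and in Thy1+ and SSEA1-Thy1- cells. A site between Hoxa9 and Hoxa10, chr6:52230519-52230918, was gained at day 0 and in SSEA1-Thy1- and SSEA1+ cells. As shares, 15.9% of Hox sites were lost in 1 pair (17.9% of all sites), 1.06% in 2 (1.91%) and 0.529% in 3 (0.188%). For gains the shares were 24.3% in 1 pair (34.5% of all sites), 8.47% in 2 (9.35%) and 1.06% in 3 (1.15%).

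The SSEA1+ pair had the largest number of gained Hox peaks. Of these 26, 21 (80.8%, 60.6% to 93.4%) were open in the day 0 control list, near the 81.6% of all gained peaks. In the GFP+ control list 10 were open (38.5%, 20.2% to 59.4%), against 12.3% of all gained peaks. Hoxa went from 31 to 40 peaks, its flank and anterior sites among them: anterior Hoxa peaks numbered 11 in the control and 15 with CTCF shRNA. Hoxa3 went from 13 to 17 peaks within 10 kb, the largest gain of a Hox gene there, and Hoxb4 from 7 to 5. Of the 37 Hox peaks that closed between day 0 and GFP+ control cells, the SSEA1+ control held 11 (29.7%) and the CTCF shRNA list 23 (62.2%), and of all closing peaks 15.1% and 55.6%. Peaks within 10 kb of the fibroblast markers numbered 126 in the SSEA1+ control and 224 with CTCF shRNA, and their part in the Hox values was not tested.

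In Thy1+ cells the 19 gained Hox peaks were also looked up in the other control lists. Of these, SSEA1-Thy1- control cells held 14 (73.7%, 48.8% to 90.9%, against 55.8% of all gained peaks) and SSEA1+ control cells 15 (78.9%, 54.4% to 93.9%, against 59.6%), and both intervals hold the genome's share. GFP+ control cells held 8 (42.1%, 20.3% to 66.5%, against 25.0%), and the day 0 control list 4 (21.1% against 19.1%). Of the 13 Hox peaks gained at day 0, Thy1+ control cells held 8 (61.5% against 74.9% of all), SSEA1-Thy1- cells 2 (15.4% against 54.1%), SSEA1+ cells 5 (38.5% against 50.4%) and GFP+ cells 6 (46.2% against 35.7%). With 13 peaks, the interval of the SSEA1-Thy1- share (1.92% to 45.4%) was the 1 of the 4 that did not hold the genome's share.

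Gene starts changed little with CTCF shRNA. At day 0 Hoxd4 gained a peak (0.58% of all genes gained one) and Hoxd12 lost one (0.818% of all lost one). In Thy1+ cells Hoxc12 gained one (1.74%) and Hoxd12 lost one (0.694%). In SSEA1-Thy1- cells Hoxd4 lost one (0.982%), and in SSEA1+ cells Hoxc12 gained one (2.69%). In GFP+ cells Hoxa2 and Hoxa3, both without one in the control, had one (1.36%). Over the 5 pairs there were 5 gains and 3 losses, and with a limit of 2500 bp 1 and 0. The genes with the largest changes within 10 kb were Hoxb3 (12 to 15) and Hoxb13 (3 to 2) at day 0, Hoxa10 (8 to 10) in Thy1+, with the same gain at Hoxa11, Hoxb3, Hoxb4 and Hoxb5, Hoxb3 (15 to 18) and Hoxa3 (15 to 14) in SSEA1-Thy1-, and Hoxc6 (8 to 10, tied with Hoxc8 and Hoxd3) and Hoxa4 (3 to 2) in GFP+ cells. Each fall by 1 peak was shared with other Hox genes, and the first in cluster order is given.

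The fifth question was what CTCF overexpression and Smarca5 shRNA did at day 10. The Hox windows held 108 peaks with oeControl, 101 with CTCF overexpression and 93 with CTCF overexpression and Smarca5 shRNA. CTCF overexpression had 14 Hox peaks lost (13% against 16.9% of all) and 7 gained (6.93% against 10.9%), a relative log2 of 0.00. Adding Smarca5 shRNA had 19 lost (18.8% against 18.3%) and 11 gained (11.8% against 16.8%), a relative log2 of -0.09. Against oeControl the double treatment had 21 lost (19.4% against 17.9%) and 6 gained (6.45% against 10.4%). These comparisons share lists.

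When Smarca5 shRNA was added at day 10, the share of peaks lost was larger in the flanks than inside the clusters. Between the first and last Hox genes the number was 85, 81 and 81 in the same order, and in the flanks it was 23, 20 and 12. Of the 20 flank peaks under CTCF overexpression 10 were lost (50.0%, 27.2% to 72.8%), and of the 81 inner peaks 9 (11.1%, 5.21% to 20.05%). Genome-wide, 21.9% of peaks away from gene starts and 6.37% of those at gene starts were lost in this pair. Peaks within 10 kb of the markers of pluripotent cells numbered 78 and 62 in these lists and those near fibroblast markers 73 and 70, and their part in the Hox values was not tested. Several of the lost sites were open in all 10 day 0 and sorted lists. Among them were chr6:52270482-52270918 beyond Hoxa13, chr15:103069139-103069643 beyond Hoxc4, and chr2:74661689-74662130 beyond Hoxd13. The site at the start of Hoxa11, chr6:52245125-52245933, was open in all lists but this one. Hoxa11, which patterns the forearm and the uterus, was the 1 Hox gene to lose its gene-start peak (2.81% of all genes lost one), and the next peak lay 5065 bp away. Hoxb6, which has no entry in the promoter table, gained a gene-start peak with CTCF overexpression (1.22% of all genes), a call not made with limits of 500 or 2500 bp or with the 5′ end taken from the strand of the cluster, where Hoxb2 gained one. Against oeControl the double treatment had Hoxb6 gained (0.594% of all) and Hoxa11 lost (2.37%). The largest changes within 10 kb were Hoxb2 (5 to 7) and Hoxd4 (4 to 2) with CTCF overexpression, Hoxd13 (4 to 2) with Smarca5 shRNA added, and Hoxc4 (7 to 5, tied with Hoxd13) in the double treatment against oeControl. With Smarca5 shRNA added no Hox gene gained more than 1 peak.

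At day 12, in unsorted cells, both lists held 54 Hox peaks, with 4 lost (7.41% against 5.4% of all) and 4 gained (7.41% against 6.81%) under Smarca5 shRNA. By region, 0 of 10 flank peaks and 4 of 44 peaks between the first and last Hox genes were lost, unlike at day 10. Hoxc4, Hoxc11 and Hoxd11 lost their gene-start peak (3 of 39, with 0.704% of all genes losing one) and no Hox gene gained one (0.443% of all). Hoxc4 is expressed along the neck and trunk, and Hoxc11 and Hoxd11 in the hind part of the body and the limb. From the Hoxc4 start the nearest peak lay 285 bp away in the control and 6392 bp with Smarca5 shRNA, and from the Hoxd11 starts 0 and 6211 bp, and all 3 losses were also called with limits of 500 and 2500 bp. They do depend on which end is read: with the 5′ end by cluster strand Hoxc4 and Hoxd11 were lost, and with either end of every gene Hoxc11 alone. Within 10 kb, Hoxb3 had 6 and 7 peaks and Hoxb6 4 and 3, and no Hox gene changed by more than 1. Hoxa11, whose gene-start peak was absent with Smarca5 shRNA at day 10, had one in both day 12 lists.

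Finally, 53 genes that work with the Hox clusters or lie beside them were read the same way. They were 9 cofactors of the PBC and MEIS families, which bind DNA with Hox proteins, 9 upstream or neighbouring patterning genes, 15 Polycomb and 8 Trithorax-type genes, and 12 genes next to the clusters. Of the 53, 50 had a gene-start peak in the day 0 control list, 47 at day 0 with CTCF shRNA, and 51 to 52 in the sorted lists. The shares of all genes were 67.4%, 67.2% and 67.6% to 70.5%. At day 10 the numbers were 51 with oeControl, 53 with CTCF overexpression and 49 with Smarca5 shRNA added (65.8%, 66.2% and 64.0% of all genes). At day 12 they were 47 with control and 46 with Smarca5 shRNA (61.3% and 61.1% of all genes). Nearly all Polycomb genes were open throughout, with 14 of 15 in SSEA1-Thy1- cells with CTCF shRNA, where Pcgf2 lost its peak (0.982% of all genes), and 15 in the other 14 lists. Over the lists 61.1% to 70.5% of all genes were open.

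CTCF shRNA at day 0 went with the loss of gene-start peaks at Meis2, a Hox cofactor, Cdx2, an activator of posterior Hox genes, and Kdm6b, a demethylase that removes the Polycomb mark (3 of 53, with 0.818% of all genes losing one). In Thy1+ cells Meis2 gained one (1.74% of all genes), in SSEA1-Thy1- cells Kdm6b did (1.57%), and in SSEA1+ cells Evx2 did (2.69%). Evx2 lies beyond Hoxd13 and Evx1 beyond Hoxa13. Both lost their gene-start peak when Smarca5 shRNA was added to CTCF overexpression at day 10, as did Kdm6b and Ttll6, a neighbour of Hoxb13 (4 of 53, against 2.81% of all genes). A flank site at a gene start beyond Hoxd13, chr2:74658639-74659276, was likewise gained in SSEA1+ cells with CTCF shRNA and lost at day 10. That site is among the Hox peaks counted above, so the Evx2 changes may not be separate from theirs. Cdx4 and Kdm6b had gained one with CTCF overexpression (2 of 53, against 1.22%), and Cdx2 lost one with Smarca5 shRNA at day 12 (0.704% of all genes). In control cells Cdx1, Cdx4 and Ash2l gained one from day 0 to Thy1+ cells (3 of 53, against 2.84% of all genes), and Meis2 and Kdm6b lost one there (2 of 53, against 0.754%). At the step to SSEA1+ cells Meis2 gained it again (1.11% of all genes) and Evx2 lost it (1.83%). At the step to GFP+ cells Evx2 and Kdm6b gained it (2.78%) and Meis2 lost it (2.44%). Distinct peaks within 10 kb of the 9 cofactors numbered 153 at day 0 and 106 in GFP+ control cells, and of the 15 Polycomb genes 101 and 105. The GFP+ list is shorter, and as shares of the lists these were 0.0994% and 0.116% for the cofactors. For the Polycomb genes they were 0.0656% and 0.115%, so both shares were higher in GFP+ cells.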

How the data were processed

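ATAC-seq peak lists of 15 groups (32 samples) were used. The submitters' processing notes name MACS2, Bowtie2, cutadapt with Trim Galore, Picard, SAMtools and FastQC, and mm10 (GRCm38) as the build. Not given in the sources used here: tool versions, the peak threshold, any transposase shift and how samples were combined. The deposited intervals are 400 bp wide before merging and their score is 0 throughout in the deposited lists, so peaks could not be ranked, and depth is unknown.

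Intervals of a list that overlapped were merged. A peak sharing 1 bp or more with a peak of the other list was kept; a peak of the first list alone was lost, and of the second list alone gained. Relative log2 values subtract the log2 ratio of whole lists from that of Hox peaks. Gene starts and promoter sequences come from RefSeq (GRCm38.p6): 22 of 39 Hox genes and 17492 of all 21887 genes matched the promoter table, and for the others either gene end was used. Named genes are those whose gene-start peak lay in 1 list of a pair, those in the most or fewest lists, and, per pair, those with the largest change within 10 kb. Counting was tested on simulated lists, and intervals were computed with scipy 1.17.1 (pandas 2.3.3, Python 3.11.15). A Hoxa gene, counted in the totals, is not reported here by itself, and the plot of gene starts and the site map leave it and its nearest sites out. Members and gene lists were chosen with earlier results of these data known.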

Additional observations from a re-analysis of the deposited data

Results flagged for a closer look

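Hoxd4 went opposite ways under CTCF shRNA in different populations. At day 0 its peaks within 10 kb numbered 5 without and 7 under CTCF shRNA, 2 more, and its gene-start peak was gained. In SSEA1-Thy1- cells they numbered 6 and 5, a difference of -1, and the gene-start peak was lost. Each arm is 1 peak list, and the difference between the populations was not tested.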

How the results depend on the processing

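Of 178 values recomputed under other settings, 170 moved by less than their counting interval (counts of genes by less than 1.5 times). Many relative log2 values lie near 0, and 17 of them had the other sign: 10 of the 14 set against gene-start peaks, and 7 without a cluster or without the flanks. The relative log2 of Hox peaks of all places was also measured against gene-start peaks alone instead of whole lists. It was then 0.068 for CTCF shRNA in SSEA1+ cells (-0.29 against whole lists). From SSEA1+ to GFP+ control cells it was -0.053 (0.49 against whole lists), and from day 0 to GFP+ control cells -0.062 (0.66). With a distance of 2500 bp, gains of Hox gene-start peaks over the 5 CTCF shRNA pairs were 1 (5 at 1 kb) and losses 0 (3 at 1 kb). With the 5′ end taken from the strand of the cluster, an alternative chosen after seeing the data, they were 7 and 5. With posterior genes counted from group 10, posterior peaks made up 26.4% at day 0 and 29.0% in GFP+ cells, against 42.5% and 44.0%. The cause of these shifts was not tested. Leaving out 1 CTCF shRNA pair at a time (mean -0.086 over all 5) gave mean relative log2 values from -0.12 to -0.035. No paired analysis was possible because each group has 1 pooled list. Read depth is unknown, so a peak absent from a list may be one that its depth could not show.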

Other observations

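Few Hox sites belonged to 1 population alone. Among the 10 day 0 and sorted lists, 5 of 189 Hox sites were open in both GFP+ lists and in no other (2.65%, against 2.57% of 266864 sites). They were chr11:96150975-96151374 and chr11:96153231-96153630 in the flank beyond Hoxb13, chr15:102885744-102886143 beyond Hoxc13, chr15:102939521-102939920 within 1 kb of an end of Hoxc12, and chr6:52168640-52169039 between Hoxa2 and Hoxa3. Both day 0 lists alone shared 4 sites (2.12% against 4.93%): chr11:96181260-96181659 and chr11:96411178-96411577 in the Hoxb flanks, chr15:102891979-102892378 beyond Hoxc13, and chr6:52261873-52262272 near the outer end of Hoxa13. Both SSEA1-Thy1- lists alone shared 1 site, chr15:103054082-103054481 beyond Hoxc4 (0.529% against 0.189%), and the Thy1+ and SSEA1+ pairs shared 0 (against 0.595% and 0.0244% of all sites). These sites were named after their values were seen.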
